A study of Mus musculus with 4 samples.

Results

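The BCL2 family decides whether a cell keeps its mitochondria intact or dies by apoptosis. It was followed here in T29 cells, a mouse thymic lymphoma line, exposed to a gamma-secretase inhibitor. The genes listed were Bcl2, Bcl2l1, Mcl1, Bcl2l11, Bmf, Bbc3, Pmaip1, Bid, Bax and Bak1, 10 in all. They were chosen by name, and every Affymetrix probe set whose only gene symbol in the platform annotation was one of them was taken. This gave 30 probe sets for 9 of the 18193 genes that had such a probe set. Bax was not analysed here. The arrays were 2 from cells given the inhibitor MRK003 (GSI) and 2 from cells given DMSO, its solvent. The treatment text gives MRK003 at 5 mM for 36 h, in the unit the labels use, and repeats it for all 4 samples, so the groups come from the sample titles. All arrays come from 1 cell line. Nothing in the labels tells whether the 2 replicates of a group were grown apart, so each p-value reflects array-to-array spread that may be technical.

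Survival proteins, BH3-only proteins and effectors make up the family. Survival proteins (BCL2, BCL-XL from Bcl2l1, MCL1) hold the effectors BAX and BAK in check, and effectors that are set free open the outer mitochondrial membrane and release cytochrome c. BH3-only proteins (BIM from Bcl2l11, BMF, PUMA from Bbc3, NOXA from Pmaip1, BID) sense stress and either block the survival proteins or engage the effectors. In developing T cells MCL1 and BCL2 keep thymocytes alive, and BIM is known for its part in the deletion of self-reactive thymocytes. Gamma-secretase releases the intracellular part of Notch receptors, which T cell leukaemias and lymphomas often need for growth.

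The values are log2 expression as deposited, made with RMA, which corrects background, normalizes arrays to each other and summarises the probes of a set. A difference is GSI minus DMSO on that scale, with the moderated standard error (SE) of limma, and a probe set was called at a Benjamini-Hochberg adjusted p under 0.05 over all 45037 probe sets tested. Levels of different probe sets are not on 1 scale. Where sets are called bright or dim, or the brightest stands for a gene, the order is one of signal and not of transcript amount. With 2 arrays against 2, an exact permutation test of a single value cannot go below a two-sided p of 0.333, so calls rest on limma, which shares spread across probe sets. In bulk RNA, fewer cells of a type and less RNA per cell cannot be told apart.

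Arrays correlated across probe sets at 0.9970 within GSI, 0.9959 within DMSO and 0.9915 to 0.9940 between groups. All 6 Notch-dependent genes used as a check of the treatment fell, with 1 probe set per gene (limma). The falls were 1.99-fold for Notch3, 3.26-fold for Ptcra, 4.79-fold for Hes1, 5.34-fold for Nrarp, 7.33-fold for Il2ra and 11.6-fold for Dtx1. These 6 genes were listed with earlier results of these data known, so the check is not independent. Of all genes, 2.56% were called higher and 1.56% lower (limma). Of 8 measured T lineage markers, 4 rose (Cd8a, Cd8b1, Cd4 and Thy1) and 1 fell (Cd3g), and their mean log2 levels lay between 7.18 and 12.49. Of the 16 measured markers of B cells, myeloid, erythroid, killer, stromal and epithelial cells, 1 fell and 15 did not pass. The one that fell was Pdgfrb. The 4 stromal and epithelial markers, summed before the log, read 7.96 on both GSI arrays, against 9.01 and 8.87 on the DMSO arrays. Pdgfrb makes up most of that sum. The others differed by -0.064 (Col1a1), -0.054 (Col1a2) and 0.064 (Epcam). The median levels of these 5 lists lay between 3.60 and 5.18 on the log2 scale, against 4.88 as the median over all probe sets, with Epor (mean 6.91 with GSI and 7.11 with DMSO) and Pdgfrb (7.40 with GSI and 8.69 with DMSO) the brightest. The part of these markers in the results below was not tested.

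Among the BCL2 family genes, Bmf rose with GSI, and no other measured member passed the test. Of 30 member probe sets, 1 was called, higher with GSI, where 0.948% of all probe sets were called higher and 1.39% in either direction. Before adjustment 14 of the 30 had a p under 0.05, 10 higher and 4 lower, against 16.4% of all probe sets. Both GSI arrays lay above both DMSO arrays in 11 of the 30, where 21.3% of all probe sets did, and below both in 5, where 25.2% did. Probe sets of 1 gene share that gene and the same arrays, so these counts are not counts of independent events. The median difference was 0.47 over 13 probe sets of BH3-only genes, 0.10 over 15 of survival genes and -0.21 over the 2 of the effector gene Bak1, against -0.01 over all probe sets. With 1 probe set per gene, 1 of 9 genes was called higher and 0 lower, where 2.56% of all genes were called higher and 1.56% lower. Before adjustment 4 of the 9 had a p under 0.05, as did 21.5% of all genes.

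**Figure D1:**
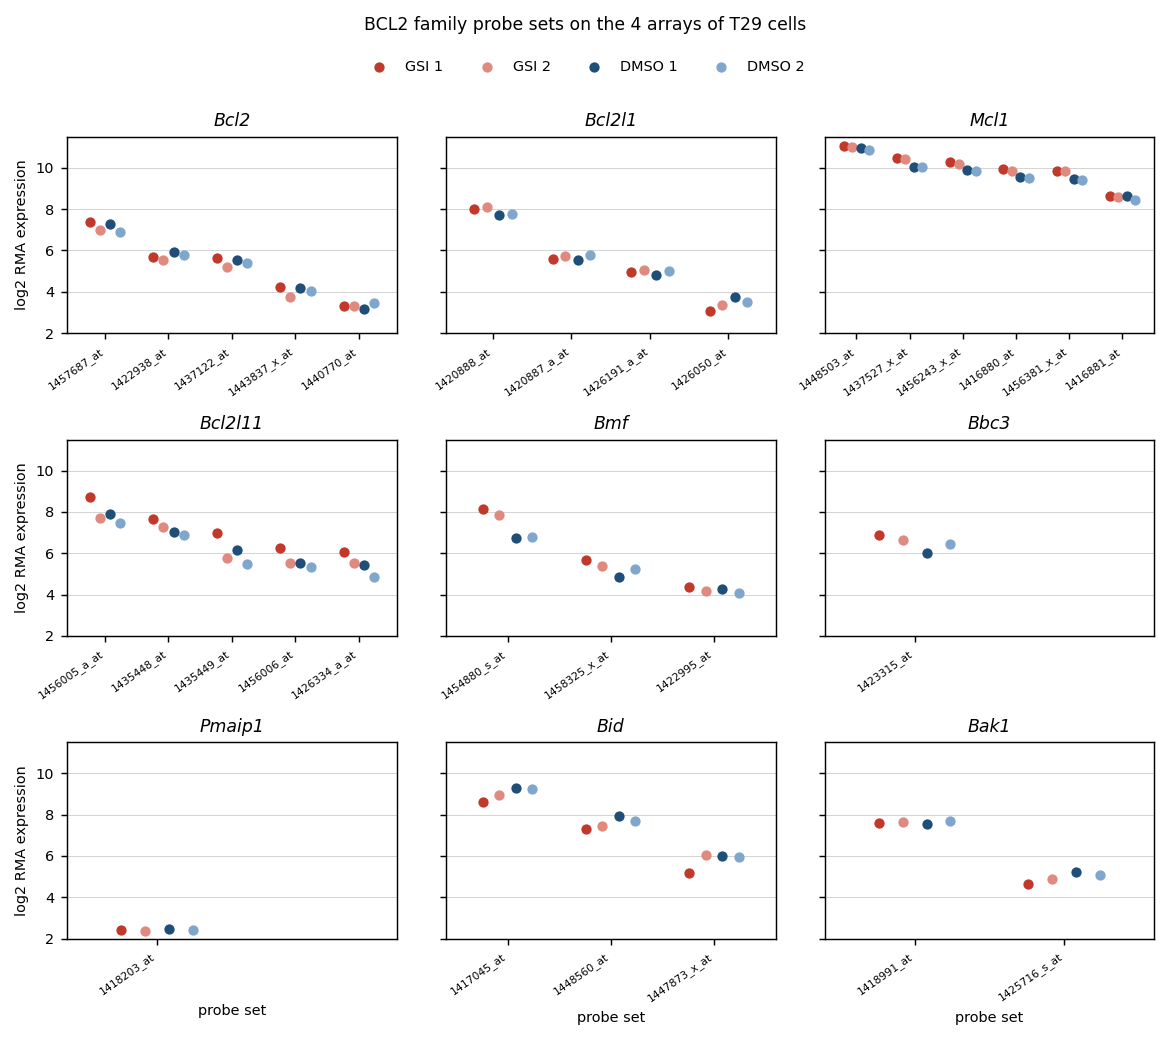
Log2 RMA expression of the 30 BCL2 family probe sets on each array, a panel per gene and a group of 4 points per probe set (red, GSI 1 and 2, then blue, DMSO 1 and 2). The first Bmf probe set has its GSI points at 8.12 and 7.84 and its DMSO points at 6.73 and 6.79, and Pmaip1 lies between 2.35 and 2.45 on all arrays.

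BMF is a BH3-only protein that healthy cells hold at the cytoskeleton through a dynein light chain and that binds the survival proteins once released. Its brightest probe set, 1454880_s_at, read 8.12 and 7.84 on the GSI arrays, against 6.73 and 6.79 on the DMSO arrays. The groups were separated by over 1 log2 unit. The difference was 1.22 (SE 0.12, 95% interval 0.91 to 1.52), a 2.33-fold rise (limma, adjusted p = 0.0180). By its p this probe set ranked 199 of all 45037. The dimmer 1458325_x_at read 5.68 and 5.36 with GSI, against 4.86 and 5.24 with DMSO. Its groups did not overlap, but the difference of 0.47 (SE 0.17) did not pass (adjusted p = 0.260). It was 0.28 without DMSO replicate 1. The dimmest, 1422995_at, read 4.36 and 4.19 with GSI, against 4.28 and 4.10 with DMSO, and its difference of 0.089 had an interval of -0.20 to 0.38. That level lies below the median over all probe sets. Whether the 3 probe sets differ from each other was not tested. The mean over the 3 rose by 0.59 (limma over all genes, adjusted p = 0.0335). The suffix s marks probes shared by several transcripts and x marks some probes with matches elsewhere, so signal from related sequences may enter both.

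The call for Bmf was lost with any 1 array left out. Every other call in the fit of all probe sets was lost as well, so this loss is not particular to Bmf. In those fits the difference of 1454880_s_at stayed between 1.08 and 1.36. The exclusion of an array leaves 1 array in its group and lowers the degrees of freedom. Over every alternative tried, the adjusted p of this probe set ranged between 0.00205 and 0.362.

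**Figure D2:**
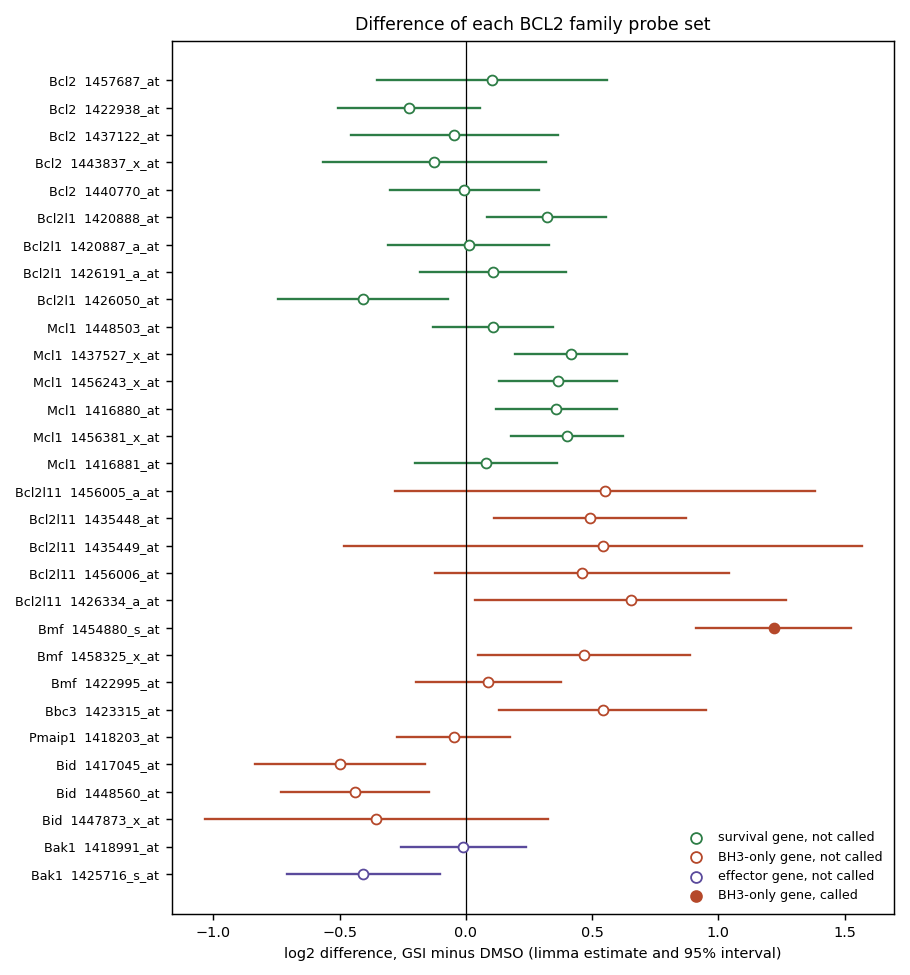
Log2 difference, GSI minus DMSO, of each BCL2 family probe set with its 95% interval from limma, not adjusted for the number of probe sets, coloured by role (green survival, red BH3-only, purple effector). The filled point, 1454880_s_at of Bmf at 1.22, is the only called probe set, and the intervals of the other Bmf probe sets lie lower.

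By profile, the genes most like Bmf were Btg2, Spo11 and Prkaa2, chosen as the smallest root mean square distance between log2 profiles over the 4 arrays, each centred on its own mean. The distances were 0.037 for Btg2, an antiproliferative gene, 0.043 for Spo11, which makes the double-strand breaks of meiosis, and 0.049 for Prkaa2, a catalytic subunit of AMP-activated kinase. Btg2 read 11.43 and 11.05 with GSI, against 10.02 and 10.04 with DMSO. Like Bmf, all had both GSI arrays above both DMSO arrays, which follows from how they were chosen. The likeness rests on 4 arrays in 2 groups.

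Upstream sequence of the member genes was taken from RefSeq, and the windows that held a TGGGAA or GTAAACA match are printed. The genes shown are thus those with a match. Pmaip1 was left out of the member windows. For the other 8 of the 9 measured genes, windows (GRCm38.p6) of 250 bases before a transcript start were used, 15 windows in all. They were searched on both strands for TGGGAA, the core that the Notch partner RBPJ binds, for GTAAACA, a FOXO site, and for CACGTG, the E-box of MYC. The motifs do not overlap in the windows printed. Capitals mark the matches.
Bmf, chr2:118544588-118544837, minus strand: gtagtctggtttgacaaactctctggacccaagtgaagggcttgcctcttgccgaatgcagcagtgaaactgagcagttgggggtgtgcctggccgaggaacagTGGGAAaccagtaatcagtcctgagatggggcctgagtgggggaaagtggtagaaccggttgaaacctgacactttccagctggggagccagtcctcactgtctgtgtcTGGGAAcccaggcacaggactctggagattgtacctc
Bcl2l11, chr2:128125788-128126037, plus strand: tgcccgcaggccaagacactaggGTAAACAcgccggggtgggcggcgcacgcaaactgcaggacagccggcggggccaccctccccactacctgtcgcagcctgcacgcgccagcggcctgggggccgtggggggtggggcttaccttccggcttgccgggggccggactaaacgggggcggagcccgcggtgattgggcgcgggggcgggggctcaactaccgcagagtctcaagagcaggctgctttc
Bbc3, chr7:16310011-16310260, plus strand: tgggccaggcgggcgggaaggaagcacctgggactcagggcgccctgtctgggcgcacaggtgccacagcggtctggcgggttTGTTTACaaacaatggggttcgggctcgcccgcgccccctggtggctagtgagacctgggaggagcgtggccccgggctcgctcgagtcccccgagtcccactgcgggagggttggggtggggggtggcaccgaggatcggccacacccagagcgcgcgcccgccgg

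TGGGAA occurred in 1 of the 15 member windows, that of Bmf, with matches starting 146 and 37 bases before the start. It occurred in 21.6% of all 32851 windows. The other 2 windows of Bmf held none of the motifs. GTAAACA occurred in 2 member windows, on the plus strand of Bcl2l11, 227 bases before the start, and as its reverse complement in Bbc3, 167 bases before the start. It occurred in 3.17% of all windows. CACGTG was found in 1 member window, another start of Bbc3, and in 6.02% of all windows. A match in these letters is a description of the window and not evidence of binding.

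BIM, from Bcl2l11, binds every survival protein and is the BH3-only protein most tied to thymocyte death. All 5 of its probe sets had higher means with GSI, by 0.46 to 0.65, and 0 of 5 was called (limma, adjusted p = 0.206 to 0.591), with 2 at an unadjusted p under 0.05. The brightest, 1456005_a_at, read 8.73 and 7.71 with GSI, against 7.89 and 7.45 with DMSO. GSI replicate 2 lay between the DMSO arrays, and the groups overlapped. The probe set 1435448_at read 7.66 and 7.26 with GSI, against 7.05 and 6.89 with DMSO, and 1426334_a_at read 6.07 and 5.52 with GSI, against 5.42 and 4.86 with DMSO. In these the groups did not overlap, with differences of 0.49 (SE 0.15, adjusted p = 0.206) and 0.65 (SE 0.25, adjusted p = 0.281). The remaining sets, 1435449_at and 1456006_at, overlapped between groups.

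The replicates of Bcl2l11 stood far apart. GSI replicate 1 exceeded GSI replicate 2 in all 5 probe sets, by 0.40 to 1.20, and DMSO replicate 1 exceeded DMSO replicate 2 in all 5, by 0.17 to 0.68. The differences between groups, 0.46 to 0.65, lay within the range of these gaps between GSI replicates. Set by set, the difference exceeded both replicate gaps for 1435448_at (0.49 against 0.40 and 0.17) and 1426334_a_at (0.65 against 0.56 and 0.56). For the other sets it was smaller than the gap between GSI replicates. Without GSI replicate 1 the differences ranged between -0.058 for 1435449_at and 0.37 for 1426334_a_at. Since the 5 sets read 1 gene on the same arrays, their common direction counts as 1 observation.

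**Figure D3:**
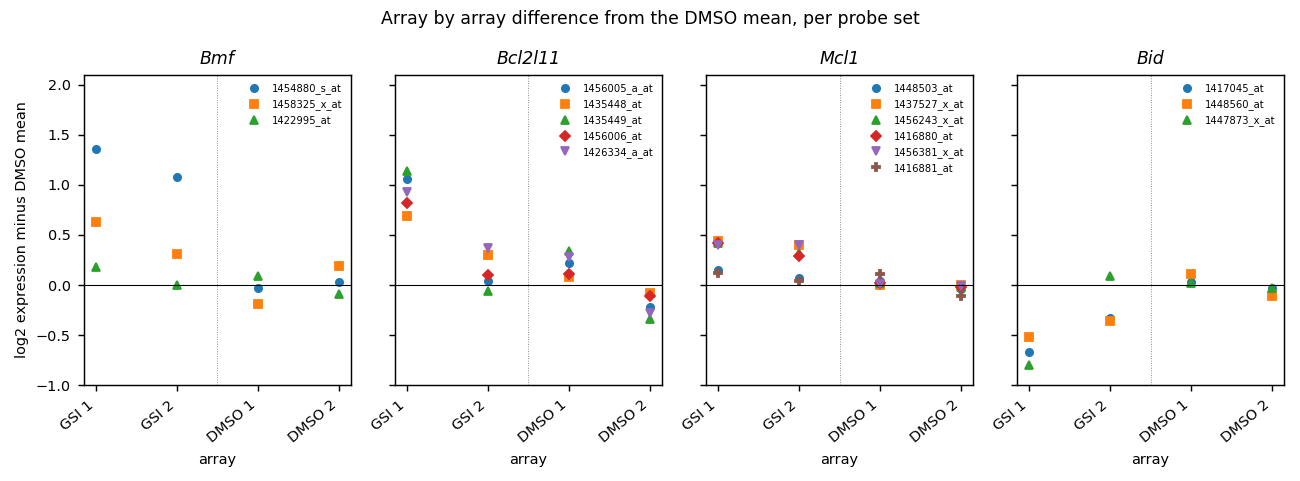
Log2 expression of each probe set of Bmf, Bcl2l11, Mcl1 and Bid on each array, minus that probe set's DMSO mean (GSI arrays left of the dotted line, DMSO arrays right, a marker per probe set). For Bcl2l11 every marker is highest on GSI 1, and whether GSI 2 lies above or below DMSO 1 differs between probe sets. For Mcl1 the markers split into a set near 0.4 and a set near 0.1 on the GSI arrays.

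PUMA, from Bbc3, is a p53-induced BH3-only protein, and its single probe set 1423315_at read 6.87 and 6.66 with GSI, against 6.01 and 6.44 with DMSO. Both GSI arrays were higher, and the difference of 0.54 (SE 0.17, 95% interval 0.13 to 0.95) did not pass (limma, adjusted p = 0.199). It was 0.33 without DMSO replicate 1 and 0.76 without DMSO replicate 2. NOXA, from Pmaip1, which neutralises MCL1, read 2.40 and 2.35 with GSI, against 2.45 and 2.40 with DMSO on its only probe set, 1418203_at. All lie below the median over all probe sets, and the difference of -0.049 did not pass (limma, adjusted p = 0.855).

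BID links death receptors to mitochondria after caspase-8 cuts it, and it had the lowest differences among the BH3-only genes. The brightest probe set, 1417045_at, read 8.61 and 8.96 with GSI, against 9.31 and 9.25 with DMSO. The probe set 1448560_at read 7.29 and 7.45 with GSI, against 7.91 and 7.70 with DMSO. In both, each GSI array was below each DMSO array, with differences of -0.50 (SE 0.14, limma, adjusted p = 0.167) and -0.44 (SE 0.12, adjusted p = 0.161). Neither passed. The third, 1447873_x_at, read 5.18 and 6.06 with GSI, against 6.003 and 5.95 with DMSO, and overlapped. With 1 probe set per gene Bid had an adjusted p of 0.103, and 0.0270 with an intensity trend and a robust prior in limma. With that trend and prior in the fit of all probe sets, 1417045_at had 0.0550. The mean over the Bid probe sets had an adjusted p of 0.179 (limma). The direction of the Bid means was opposite to that of Bmf, Bcl2l11 and Bbc3, among which only Bmf passed.

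Mcl1 encodes a short-lived survival protein that thymocytes depend on. All 6 probe sets had higher means with GSI and 0 was called, with 4 at an unadjusted p under 0.05 (limma). The probe set 1437527_x_at read 10.47 and 10.43 with GSI, against 10.04 and 10.04 with DMSO. 1456381_x_at read 9.83 and 9.83 with GSI, against 9.44 and 9.42 with DMSO. Replicates of these sets lay close together. The differences were 0.41 (SE 0.090, adjusted p = 0.105) and 0.40 (SE 0.089, adjusted p = 0.110). Similar differences of 0.37 and 0.36 were found for 1456243_x_at and 1416880_at (adjusted p = 0.148 and 0.163). The brightest set, 1448503_at, read 11.08 and 10.996 with GSI, against 10.97 and 10.89 with DMSO. Its difference of 0.11 had an interval of -0.13 to 0.35, and that of 1416881_at was 0.080 with an interval of -0.20 to 0.36. Sets for 1 gene thus fell near 0.4 or near 0.1, and the difference between them was not tested. Of the 6 Mcl1 sets, 4 passed with an intensity trend and a robust prior (adjusted p = 0.0112 to 0.0371), and of these 1437527_x_at and 1456381_x_at passed with dim probe sets left out (0.0449 and 0.0472). Of the 4, 3 carry the suffix x.

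Bcl2 and Bcl2l1 encode BCL2 and BCL-XL, survival proteins that guard the mitochondrial membrane. The brightest Bcl2 probe set, 1457687_at, read 7.40 and 6.99 with GSI, against 7.27 and 6.91 with DMSO. The groups overlapped and the replicates differed by more than the groups. The difference of 0.10 had an interval of -0.35 to 0.56. The probe set 1422938_at, the only one of Bcl2 whose groups did not overlap, read 5.71 and 5.53 with GSI, against 5.93 and 5.76 with DMSO. Over the 5 Bcl2 probe sets, which also include 1437122_at, 1443837_x_at and 1440770_at, the differences lay between -0.23 and 0.10, and 0 had a p under 0.05 (limma, lowest adjusted p = 0.403). For Bcl2l1 the brightest set, 1420888_at, read 7.99 and 8.10 with GSI, against 7.70 and 7.74 with DMSO, a difference of 0.32 (SE 0.095, adjusted p = 0.192). The dim 1426050_at pointed the other way, at 3.08 and 3.36 with GSI, against 3.74 and 3.52 with DMSO (difference -0.41, SE 0.14, adjusted p = 0.230). The other sets of Bcl2l1, 1420887_a_at and 1426191_a_at, overlapped between groups, with differences of 0.012 and 0.11. None of the 4 passed.

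BAK, from Bak1, is the effector that sits in the mitochondrial membrane before death signals arrive. Its brighter probe set 1418991_at read 7.58 and 7.64 with GSI, against 7.55 and 7.69 with DMSO. The GSI arrays lay between the DMSO arrays, with a difference of -0.0095 and an interval of -0.26 to 0.24. The dimmer 1425716_s_at read 4.63 and 4.88 with GSI, against 5.23 and 5.09 with DMSO, and its difference of -0.41 (SE 0.12, limma) did not pass (adjusted p = 0.196).

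Genes around the family were taken from lists, with 1 probe set per gene and p-values adjusted over all 18193 genes. Of all these genes, 2.56% were called higher and 1.56% lower (limma), and 21.5% had an unadjusted p under 0.05. Of 11 measured further family members 0 passed, with 3 at an unadjusted p under 0.05 (limma) and a median difference of -0.12. The smallest p were those of Bok, encoding a BAX-like protein, which read 6.35 on both GSI arrays, against 6.74 and 6.73 on the DMSO arrays (adjusted p = 0.0630), and of Bcl2l15 (difference -0.32, adjusted p = 0.130). Bok passed with dim probe sets left out, with an intensity trend and a robust prior, and with probe set means (adjusted p = 0.0261 to 0.0473). Bnip3, a hypoxia-induced mitophagy receptor gene singled out after its values were seen, read 7.84 and 9.09 with GSI, against 7.03 and 10.34 with DMSO. Its DMSO replicates stood further apart than any pair of arrays of a member.

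Downstream, 1 of 13 measured genes of the apoptosome, caspases and their inhibitors rose, 1 fell and 11 did not pass. Of the 13, 5 had an unadjusted p under 0.05 (limma), and the median difference was 0.0097. Htra2, a mitochondrial protease that removes caspase inhibitors, read 7.36 and 7.30 with GSI, against 8.11 and 7.98 with DMSO, a 1.65-fold fall (limma, adjusted p = 0.0186). Birc3, encoding a ubiquitin ligase that restrains caspases and cell death, read 7.58 and 7.74 with GSI, against 7.17 and 7.07 with DMSO, a 1.46-fold rise (adjusted p = 0.0455). Endog, encoding a mitochondrial nuclease and singled out after its values were seen, read 7.16 and 7.70 with GSI, against 8.17 and 8.32 with DMSO and did not pass (difference -0.81, adjusted p = 0.0718). Apaf1, the apoptosome scaffold, differed by 0.0097 and Casp9 by -0.069, both short of the threshold.

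In the death receptor branch that acts through caspase-8 and BID, 0 of 9 passed, with 5 at an unadjusted p under 0.05 (limma), against 21.5% of all genes, and a median of 0.25, the highest of these lists. The receptor gene Fas read 5.32 and 4.91 with GSI, against 4.40 and 4.27 with DMSO (difference 0.78, adjusted p = 0.0520). Cflar, encoding the caspase-8 inhibitor FLIP, read 7.56 and 7.14 with GSI, against 6.66 and 6.58 with DMSO (difference 0.73, adjusted p = 0.0590). Neither passed. With median-centred arrays the adjusted p was 0.0296 for Fas and 0.0338 for Cflar, and with cyclic loess 0.0350 for Fas and 0.0532 for Cflar. Both passed with an intensity trend and a robust prior (limma, adjusted p = 0.0164 and 0.0140). Neither passed with a block for replicate number (limma, adjusted p = 0.0801 and 0.0992). Leaving out dim probe sets dropped Fas, and Cflar then passed (limma, adjusted p = 0.0286). As a mean of its probe sets Cflar differed by 0.35 (adjusted p = 0.0847). In both genes the GSI replicates stood further apart than the DMSO replicates.

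Of 8 mitochondrial membrane and dynamics genes 0 passed and 0 had an unadjusted p under 0.05 (limma). Vdac2, a channel gene whose product is known to hold BAK, differed by -0.17 (adjusted p = 0.314), and Bcap31 by 0.13 (adjusted p = 0.455). Of 16 measured regulators, 1 rose and 1 fell, and 8 had an unadjusted p under 0.05 (limma). Foxo3, encoding a transcription factor known to activate Bcl2l11 and Bbc3, read 10.15 and 9.97 with GSI, against 9.26 and 9.44 with DMSO, a 1.64-fold rise (limma, adjusted p = 0.0330). Myc read 10.02 and 10.25 with GSI, against 10.77 and 10.74 with DMSO, a 1.54-fold fall (adjusted p = 0.0390). Dynll2, whose product is the dynein light chain that holds BMF, read 9.46 and 9.42 with GSI, against 9.76 and 9.66 with DMSO and did not pass (adjusted p = 0.157). Nr3c1, encoding the glucocorticoid receptor, read 10.68 and 10.79 with GSI, against 9.70 and 10.30 with DMSO (difference 0.74, adjusted p = 0.105). Dynll2 and Nr3c1 were singled out after their values were seen. The calls of Htra2, Birc3, Foxo3 and Myc were lost when any 1 array was left out. The fit of all probe sets then lost every call too, so this is not particular to these genes. With probe set means the calls of Birc3 and Foxo3 were also lost (limma, adjusted p = 0.101 and 0.0576). Trp53 was not analysed here.

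**Figure D4:**
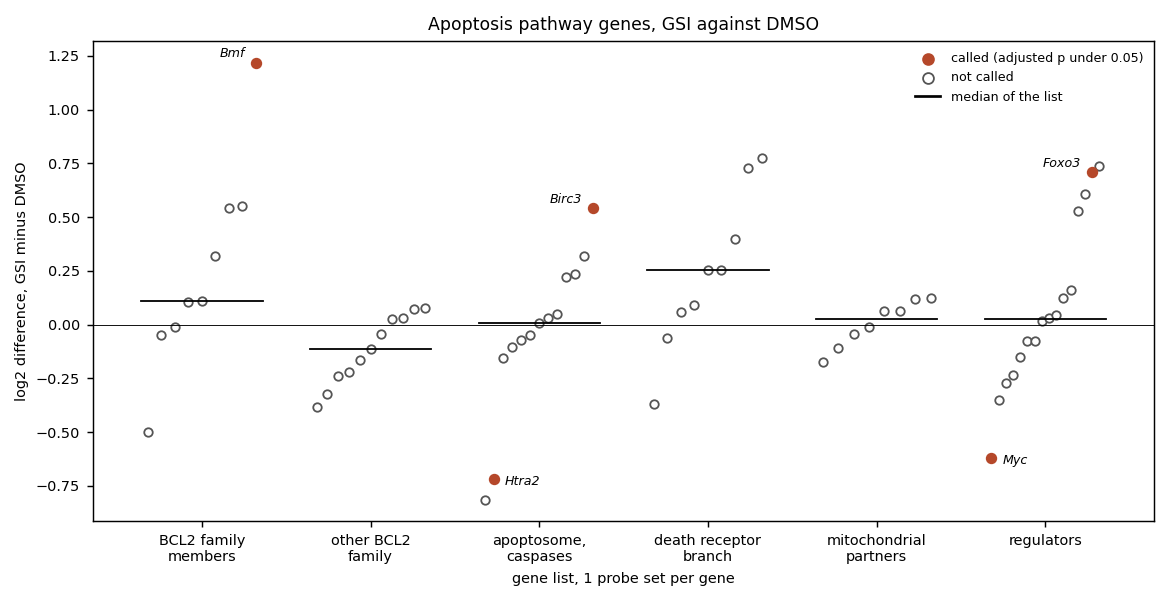
Log2 difference, GSI minus DMSO, of each measured gene in the BCL2 family and in 5 related lists, with 1 probe set per gene, sorted within a list. Filled points passed limma at an adjusted p under 0.05 (Bmf, Birc3, Htra2, Foxo3 and Myc), open points did not, and the line is the list's median, 0.25 for the death receptor branch and 0.11 for the BCL2 family.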

How the data were processed

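Expression was measured on Affymetrix arrays from biotin-labelled total RNA, per the labels' protocols, in 2 GSI and 2 DMSO samples of T29 cells. The deposited log2 values, 1 per probe set and array, were made by the authors with RMA, per the submitters' processing notes. The RMA version was not given in the sources used here, and probe-level files were not used here. RMA compresses differences of dim probe sets, and its quantile step would hide a shift common to most genes. The number of arrays limits the precision.

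Of 45101 probe sets, 64 controls were left out, and 34945 of the other 45037 had 1 gene symbol, 932 several and 9160 none. Symbols were updated by gene identifier to RefSeq GRCm38.p6, which held 34741. The main fit tested all 45037 probe sets with limma 3.58.1 in R 4.3.3 (lmFit, eBayes, group only, two-sided, 5.77 total degrees of freedom). A second fit held 18193 genes, each by its brightest 1-symbol probe set over the 4 arrays. Benjamini-Hochberg adjustment ran over all features of a fit. Intervals use the moderated fit. Dim probe sets were kept. Alternatives were dim sets left out, a trend and robust prior, median centring, a 2-fold minimum, cyclic loess, a block for replicate number, probe set means and leaving out each array. Only the limma fit was tested on simulated data. Motifs were counted with Python 3.11.15.

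Every member probe set is named. From each pathway list, the called genes are named, or otherwise the 2 with the smallest p. The members and lists were chosen with earlier results of these data known.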

Additional observations from a re-analysis of the deposited data

How the results depend on the processing

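With limma, 1 member probe set was called, against 3 with dim probe sets left out, 5 with an intensity trend and a robust prior and 0 with the replicate block, where 15 of 30 had an unadjusted p under 0.05. The Bmf probe set 1454880_s_at had an adjusted p of 0.0778 under the block, and Bmf with 1 probe set per gene 0.0465. The block also ended the calls of Htra2 (adjusted p = 0.0592), Birc3 (0.121), Foxo3 (0.104) and Myc (0.102). The 2 pairs of replicate numbers share only a number in the labels, and deviations of same-numbered arrays correlated at 0.070 across probe sets. Of all probe sets 628 were called, against 1556 with dim sets left out, 2372 with the trend and robust prior, 65 with the replicate block and 310 with a 2-fold minimum. Of the member genes 1 was called, against 2 with the trend and robust prior. With an array left out, 0 member probe sets, 0 probe sets in all and 0 member genes were called in each of these 4 fits (limma), with 5 to 16 of the member probe sets, 3939 to 7010 of all and 1 to 4 of the genes at an unadjusted p under 0.05. Where an array is left out, the lone array of its group is assumed to vary like the other group.

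The sign held in every fit run for 19 of the 30 member probe sets. With an array left out, the difference ranged between -0.10 and 0.31 for 1457687_at, -0.27 and 0.18 for 1437122_at, -0.38 and 0.13 for 1443837_x_at, and -0.14 and 0.13 for 1440770_at (Bcl2). It ranged between -0.13 and 0.15 for 1420887_a_at and -0.0059 and 0.22 for 1426191_a_at (Bcl2l1), and between -0.033 and 0.19 for 1416881_at (Mcl1). For Bcl2l11 it was -0.058 to 1.14 (1435449_at), for Bmf -0.00099 to 0.18 (1422995_at), for Bid -0.80 to 0.086 (1447873_x_at) and for Bak1 -0.079 to 0.060 (1418991_at). The set 1440770_at turned to 0.016 with cyclic loess and Bcl2 to -0.060 as a mean of probe sets, causes not tested. Centring and cyclic loess left the calls of members as they were. Values of dim sets are limited by the background, which was not analysed here.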
